A study of Mus musculus with 5 samples.

Results

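The SOX11 and SOX4 peak lists were read at 9 genes for wound proteases and their inhibitors: the matrix metalloproteinase genes *Mmp3*, *Mmp9*, *Mmp10*, *Mmp13* and *Mmp14*, the urokinase gene *Plau* and its receptor gene *Plaur*, and the inhibitor genes *Timp1* and *Timp3*. A peak was tied to a gene when its centre lay in the gene body or within 10 kb of it, or when the nearest protein-coding transcription start was that of the gene. By this rule the 9 members, of 22380 annotated protein-coding genes, held 15 SOX11 peaks, of 21270 in the list, and 0 SOX4 peaks, of 2669. *Plau* and *Timp1* carried a SOX11 peak over the transcription start, and *Mmp3* carried a peak just inside the gene. *Mmp10* and *Mmp13* had SOX11 peaks 1.02 and 2.25 kb upstream of the start, whereas *Mmp9* and *Mmp14* had no peak in either list.

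The data were ChIP-seq peaks from primary keratinocytes of newborn mice of the genotype Krt14-Cre;Sox11fl/fl;Sox4fl/fl on a background labelled mixed 129SvEx:C57BL/6, with the Cre brought in from FVB/N mice, in which a Cre driven by the keratin 14 promoter deletes both *Sox* genes in basal keratinocytes. A lentivirus returned either *Sox11* or *Sox4* with a FLAG tag under doxycycline control, and chromatin was precipitated with an anti-FLAG antibody, so the peaks are those of tagged factors after forced expression and not of the endogenous proteins. There were 2 SOX11-FLAG libraries, 2 SOX4-FLAG libraries and 1 control library, which is an input by its title and an IgG precipitation by its antibody label. The authors merged both libraries of a factor into 1 list of positions on mm9 without heights, scores or p-values, so neither the depth behind a peak nor the spread between replicates is known, and the lists can be described but not tested.

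Matrix metalloproteinases are zinc enzymes that are secreted or held at the cell surface and cut collagens, laminins and other matrix proteins. In a healing skin wound, keratinocytes of the migrating front and cells of the wound bed make several of them, and urokinase bound to its receptor turns plasminogen into plasmin, which dissolves fibrin and activates some of the metalloproteinases. TIMP proteins bind the active site of these enzymes and hold them in check. Many genes of this group are textbook targets of AP-1, the dimer of FOS and JUN proteins. SOX11 and SOX4 are closely related factors that contact DNA through an HMG box.

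The sequences of the SOX11 peaks show which of these genes had letters for either kind of factor under the peak. All are mm9, on the plus strand, on which all 9 genes are transcribed in the direction shown, and stretches in UTR exons were left out except for 1 site of 30 bases in *Mmp10*. Capitals mark 2 short words on either strand: the core of SOX factors, which is CATTGT in one form and has CTTTGT as the other, and the core of AP-1, which is TGAGTCA and, as its reverse complement, reads TGACTCA. On the plus strand a SOX core of the minus strand starts with ACAA. The first set gives, for *Mmp13*, *Mmp10*, *Mmp3*, *Timp3*, *Timp1* and *Plau*, the peak that comes earliest in the deposited list.

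*Mmp13*, 2.25 kb upstream, chr9:7270138-7270395: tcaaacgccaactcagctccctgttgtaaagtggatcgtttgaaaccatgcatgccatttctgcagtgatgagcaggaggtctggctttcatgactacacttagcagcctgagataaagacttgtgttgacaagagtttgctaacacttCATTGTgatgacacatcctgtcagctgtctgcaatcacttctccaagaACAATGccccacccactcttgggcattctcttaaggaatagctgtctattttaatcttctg

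*Mmp10*, 1.02 kb upstream, chr9:7501205-7501462: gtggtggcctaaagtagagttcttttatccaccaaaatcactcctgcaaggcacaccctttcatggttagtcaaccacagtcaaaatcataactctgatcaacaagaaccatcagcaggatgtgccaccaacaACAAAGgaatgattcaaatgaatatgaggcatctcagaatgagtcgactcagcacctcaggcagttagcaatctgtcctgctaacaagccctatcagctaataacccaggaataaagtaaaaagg

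*Mmp3*, at the junction of its leading exon and intron, chr9:7445966-7446223: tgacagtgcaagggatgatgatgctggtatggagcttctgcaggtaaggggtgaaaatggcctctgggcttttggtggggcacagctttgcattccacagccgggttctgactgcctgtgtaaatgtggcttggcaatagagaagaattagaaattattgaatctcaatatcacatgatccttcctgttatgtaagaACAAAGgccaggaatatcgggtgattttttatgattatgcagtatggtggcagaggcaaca

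*Timp3*, intron, chr10:85802362-85802619: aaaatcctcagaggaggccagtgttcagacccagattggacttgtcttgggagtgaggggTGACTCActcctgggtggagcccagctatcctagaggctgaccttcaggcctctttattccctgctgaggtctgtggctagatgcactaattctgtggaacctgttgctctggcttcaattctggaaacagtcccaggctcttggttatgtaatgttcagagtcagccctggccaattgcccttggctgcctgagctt

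*Timp1*, the part of the promoter peak before the start, chrX:20447094-20447291: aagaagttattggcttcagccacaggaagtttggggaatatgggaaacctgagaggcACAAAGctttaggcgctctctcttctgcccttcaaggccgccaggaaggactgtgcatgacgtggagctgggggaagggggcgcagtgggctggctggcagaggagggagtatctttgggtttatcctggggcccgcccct

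*Plau*, the part of the promoter peak before the start, chr14:21655710-21655883: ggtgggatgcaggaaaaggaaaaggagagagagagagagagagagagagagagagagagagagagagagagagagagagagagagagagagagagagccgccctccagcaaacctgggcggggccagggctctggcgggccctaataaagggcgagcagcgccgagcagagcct

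The stretch of *Mmp13* has 2 SOX cores, and *Mmp10*, *Mmp3* and *Timp1* have 1 SOX core each. The *Timp3* stretch has an AP-1 core alone. *Plau* has neither core; its promoter stretch is a long run of alternating G and A followed by GC-rich sequence. The second set shows the SOX core nearest to the centre in further peaks of these genes and in 1 of *Plaur*.

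*Mmp13*, 13.9 kb upstream, chr9:7258527-7258570: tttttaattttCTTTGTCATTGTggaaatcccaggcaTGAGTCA

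*Mmp10*, site in the UTR at the end of the gene, chr9:7510117-7510146: ctttcataaTGAGTCACAAAGcatcacctg

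*Mmp10*, 24.5 kb downstream of the start, chr9:7526835-7526875: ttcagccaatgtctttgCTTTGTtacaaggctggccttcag

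*Plaur*, 19.4 kb downstream of the start, chr7:25266904-25266944: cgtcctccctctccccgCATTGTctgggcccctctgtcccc

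*Timp3*, intron, chr10:85807538-85807578: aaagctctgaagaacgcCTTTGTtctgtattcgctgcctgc

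*Timp3*, 104 kb upstream, chr10:85659341-85659381: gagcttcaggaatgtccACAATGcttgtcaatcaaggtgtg

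In the upstream *Mmp13* peak the cores CTTTGT and CATTGT follow each other without a gap and an AP-1 core stands close by. At the end of *Mmp10* the AP-1 core and the SOX core share 1 base.

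To see how the binding was spread over the group, peaks were counted per gene. At least 1 SOX11 peak was tied to 7 of the 9 members (77.8%), against 57.0% of all protein-coding genes under the same rule. *Mmp10*, *Plau* and *Timp3* had 3 SOX11 peaks each, *Mmp13* and *Plaur* had 2, and *Mmp3* and *Timp1* had 1. The median was 2 peaks for the members and 1 for all genes, and 14.5% of all genes had 3 or more. No member had more than 3. With 9 genes, the share with a peak is a description and was not read as a difference from all genes.

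**Figure D1:**
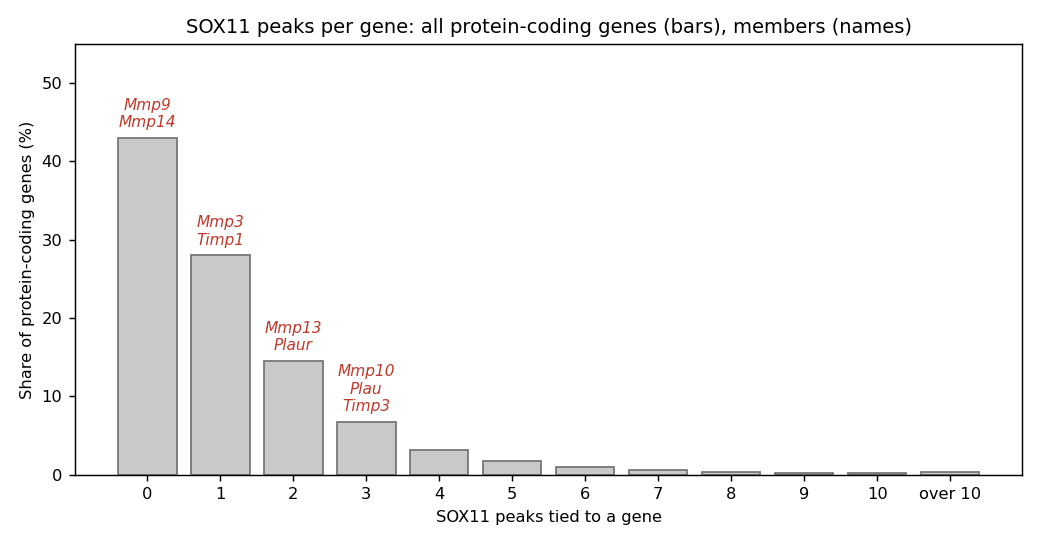
The horizontal axis gives the number of SOX11 peaks tied to a gene and the bars the share of all 22380 protein-coding genes (%); the names of the 9 members stand above the bar of their own count. The members spread over the bars from 0 to 3 peaks, where most genes of the genome also lie.

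A SOX4 peak was tied to 0 of the 9 members, a count that allows a share of up to 33.3%, and to 13.0% of all protein-coding genes. The paper reports weaker SOX4-FLAG binding than SOX11-FLAG at known target sites and proposes that the SOX4 list could miss many bound sites. Absence from that list is therefore not absence of binding. None of the 15 SOX11 peaks overlapped a SOX4 peak by even 1 bp (0%, 95% Wilson interval 0 to 20.4%), while 11.9% of the SOX11 list did. These intervals cover counting error over peaks only. The interval includes the share of the list, so a difference from the list was not detectable at this number of peaks. The nearest SOX4 peak to a start of a member lay 44.5 kb from *Plaur*, with *Zfp428* as its nearest gene. It lay 52.9 kb from *Timp1*, next to *Araf*, and 66.7 kb from *Plau*, next to *Vcl*. For *Mmp9*, *Timp3* and *Mmp14* the distance was 80.4, 184 and 323 kb. The metalloproteinase cluster of chromosome 9 was farther still from any SOX4 peak: the nearest, next to *Arhgap42*, lay 1736 kb from *Mmp10*, 1793 kb from *Mmp3* and 1966 kb from *Mmp13*. Distances to SOX4 peaks over all genes are not given here, so these values were not read as unusual.

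**Figure D2:**
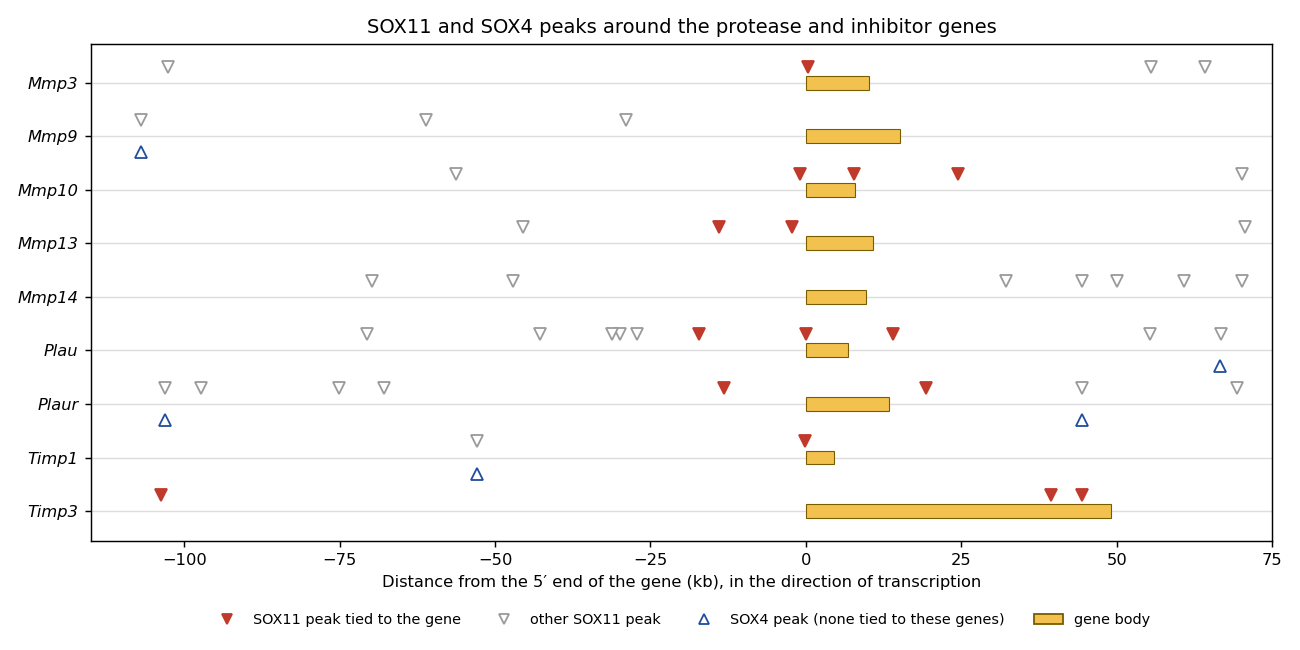
Each row is a gene, drawn from its 5′ end at 0 kb in the direction of transcription (box, gene body); triangles that point down are SOX11 peaks, filled red where tied to the gene and open grey otherwise, and open blue triangles that point up are SOX4 peaks. The filled triangles lie in or near the genes, except for 1 *Timp3* peak 104 kb upstream, no blue triangle lies within 10 kb of a gene body, and the intronic *Timp3* peaks stand slightly farther right than their distance from the nearest annotated start.

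*Mmp13* (ENSMUSG00000050578.9, chr9:7272514-7283333) encodes collagenase-3, which cleaves fibrillar collagen. Its 2 SOX11 peaks were numbers 6106 and 6384 of the list, both upstream and between genes, 11.6 kb apart. The nearer peak had its SOX core CATTGT 23 bp from the centre. In the farther peak the paired SOX cores lay 82 and 76 bp before the centre and the AP-1 cores 56 bp before and 94 bp after it. The promoter of *Mmp13*, here the 250 bp before and 50 bp after the start, held no peak. This promoter has the AP-1 core TGACTCA from 35 bp before the start.

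*Mmp3* (ENSMUSG00000043613.7, chr9:7445822-7455972) and *Mmp10* (ENSMUSG00000047562.2, chr9:7502352-7510238) encode stromelysins, which cut proteoglycans, laminin and fibronectin and can activate other metalloproteinases. The only *Mmp3* peak was number 16780 and had its centre 273 bp downstream of the start, in the intron. It had a SOX core 71 bp after the centre and no AP-1 core. The peaks of *Mmp10* were numbers 10133, 11299 and 20066, at -1.02, 7.73 and 24.5 kb from the start. The SOX cores nearest to their centres lay 7 bp after, 49 bp after and 4 bp before them. The upstream peak had a SOX core without an AP-1 core, and the other two had both cores. The peak at 7.73 kb had its centre in a UTR exon at the end of the gene. Both stromelysin promoters had the AP-1 core TGAGTCA, from 46 bp before the start in *Mmp3* and from 73 bp before it in *Mmp10*, and neither held a SOX11 peak.

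These genes stand in a row of 10 metalloproteinase genes that runs over 427 kb of chromosome 9, from *Mmp13* at 7272514 to the end of *Mmp7* at 7699585. Between those positions the lists had 7 SOX11 peaks, or 16.4 per Mb (95% exact Poisson interval 6.59 to 33.8) against 8.06 per Mb over the autosomes and the X chromosome, which lies within the interval. SOX4 peaks numbered 0 there, and their density over the genome is not given here. Of the 7 peaks, 4 were those of *Mmp3* and *Mmp10*. The others were number 4607, at -1174 bp from the start of *Mmp12* (macrophage elastase), number 8064, 1072 bp inside *Mmp27* and within 10 kb of *Mmp8* (neutrophil collagenase), and number 12378, at -24057 bp from the start of *Mmp20* (enamelysin). *Mmp1a*, *Mmp1b* and *Mmp7* had no peak. In all, 7 of the 10 genes had a SOX11 peak, against 57.0% of all protein-coding genes, and *Mmp8* and *Mmp27* share theirs.

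*Plau* (ENSMUSG00000021822.2, chr14:21655884-21662610) encodes urokinase, the plasminogen activator of migrating keratinocytes. Its promoter peak, number 8477, had its centre 45 bp upstream of the start and a GC content of 60.5%. It was the only 1 of the 15 peaks without a SOX core or an AP-1 core, a state found in 30.2% of all SOX11 peaks. The peak at 14 kb, number 13627, had an AP-1 core 104 bp after its centre. The peak at -17.1 kb, number 21151, had an AP-1 core 16 bp after its centre and stood close to the end of the list. None of the peaks of *Plau* held a SOX core.

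*Plaur* (ENSMUSG00000046223.9, chr7:25247519-25260892) encodes the urokinase receptor, which is tethered to the membrane by a lipid anchor. Its upstream peak was number 1531, the earliest of the group, and the only member peak among numbers 1 to 2127 of the list. The other peak, number 5266, was tied to *Plaur* only by the 10 kb margin: its centre was 6.03 kb beyond the end of *Plaur* and at -119 bp from the start of *Cadm4*, a cell adhesion gene, so it is a promoter peak of *Cadm4*. It had a SOX core 1 bp from the centre and the highest GC content of the group, 75.2%.

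*Timp1* (ENSMUSG00000001131.5, chrX:20447292-20451861) encodes a secreted inhibitor of most metalloproteinases. It lies inside *Syn1*, a neuronal gene on the other strand, so its promoter peak, number 17390 with its centre 69 bp upstream of the start, is also in the body of *Syn1*. A SOX core lay 69 bp before the centre and 3 ETS cores lay across the peak. *Timp3* (ENSMUSG00000020044.7, chr10:85763117-85812251) encodes an inhibitor that stays bound to the matrix and also blocks some ADAM proteases. The gene is likewise nested, within *Syn3*. Its intronic peaks, numbers 5504 and 9250, were 36.9 and 42.0 kb from the nearest annotated *Timp3* start and 5.06 kb from each other, and the third, number 10438, was an intronic peak of *Syn3* 104 kb upstream. The peak at 42.0 kb had its SOX core 3 bp after the centre and no AP-1 core, whereas the peak at 36.9 kb had an AP-1 core and no SOX core. Which of the nested genes a peak serves cannot be told from positions.

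*Mmp9* (ENSMUSG00000017737.2, chr2:164766280-164781350) encodes gelatinase B, which cuts the type IV collagen of basement membranes. *Mmp14* (ENSMUSG00000000957.8, chr14:55050441-55060095) encodes a membrane-anchored metalloproteinase that cleaves collagen at the cell surface and activates gelatinase A. No peak was tied to either gene. The nearest SOX11 peak to an annotated start of *Mmp9* lay 28.9 kb away, number 2526, chr2:164737215-164737472, with *Zfp335* as its nearest gene. For *Mmp14* it lay 32.2 kb away, number 16838, chr14:55082517-55082774, nearest to *Lrp10*. Their promoters had ETS cores (1 in *Mmp9* and 2 in *Mmp14*) but no SOX or AP-1 core. A threshold set the edges of the group: the farthest peak inside the 10 kb margin was that 7.30 kb beyond the end of *Plau*, and the closest peak outside it, 13.1 kb before *Plaur*, was kept by its nearest start.

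Of the 15 member peaks, 9 met both parts of the rule, 5 only that of the nearest start and 1 only that of the margin. Promoters, which reach from 1 kb before a start to 100 bp past it, held 3 peaks (20%, interval 7.05 to 45.2%), those at *Plau*, *Timp1* and *Cadm4*, against 23.3% of all SOX11 peaks. The centre was over 10 kb from any protein-coding start in 8 of 15 (53.3%), against 52.1% of the list, and the median distance was 13.1 kb against 11.5 kb. Upstream of the member's start lay 8 peaks and downstream of it 7. All 15 had the common width of 258 bp. Both intervals include the share of the whole list (30.1 to 75.2% for the peaks over 10 kb away).

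The SOX core was found in 11 of the 15 peaks (73.3%, interval 48.0 to 89.1%), against 58.5% of all SOX11 peaks and 32.2% of sequences of equal width 2 kb downstream of those. In the members' own sequences 2 kb downstream of the peaks the SOX core was found in 8 of 15. In 6 of the peaks a SOX core lay within 25 bp of the centre, as in 34.9% of all SOX11 peaks. The AP-1 core was found in 7 of 15 (46.7%, interval 24.8 to 69.9%), against 28.5% of the list and 4.59% of the downstream sequences, and in 0 of the members' own 15 downstream sequences. Both cores were present in 4 peaks (26.7%, interval 10.9 to 52.0%), against 17.2% of the list, at *Mmp10* (2 peaks), *Mmp13* and *Plaur*. Measured from the middle of 1 core to the middle of the other, the nearest SOX and AP-1 cores were 5.5, 27.5 and 20.5 bp apart in numbers 11299, 20066 and 6384 of the list. In number 11299 the cores themselves overlap by 1 base. Each of these intervals includes the share of the whole list. With 15 peaks, an excess of the exact SOX core, of the exact AP-1 core or of both together was therefore not detectable. Peaks with neither core numbered 1 of 15, against 30.2% of the list, and no interval was made for that share. The reading for AP-1 depended on the motif and on the rule. With the longer AP-1 motif and 1 mismatch allowed, 10 of 15 member peaks had a match (66.7%, interval 41.7 to 84.8%) against 41.1% of the list, a share just below the interval. With only peaks within 10 kb of a gene body, the exact AP-1 core was found in 30% of 10 peaks.

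By distance, the AP-1 core was present in 1 of the 7 peaks within 10 kb of a protein-coding start and in 6 of the 8 peaks beyond; over the whole list the shares were 17.5% and 38.6%. The SOX core was present in 6 of the 7 near peaks and 5 of the 8 far ones, against 51.9% and 64.5% of the whole list. This split was made after the values were seen and was not tested.

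Cores of other factors were read in the same way, and each interval included the share of the list. The TEAD core GGAATG was found in 4 of 15 peaks (26.7%) against 22.8%, the ETS core AGGAAG or CGGAAG in 6 (40.0%) against 41.7%, and the RUNX core TGTGGT in 3 (20.0%) against 20.4%. All were read on both strands. In the *Mmp10* peak 1.02 kb upstream the TEAD core overlaps the SOX core. A match is only a run of letters and does not show that a factor sat there.

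**Figure D3:**
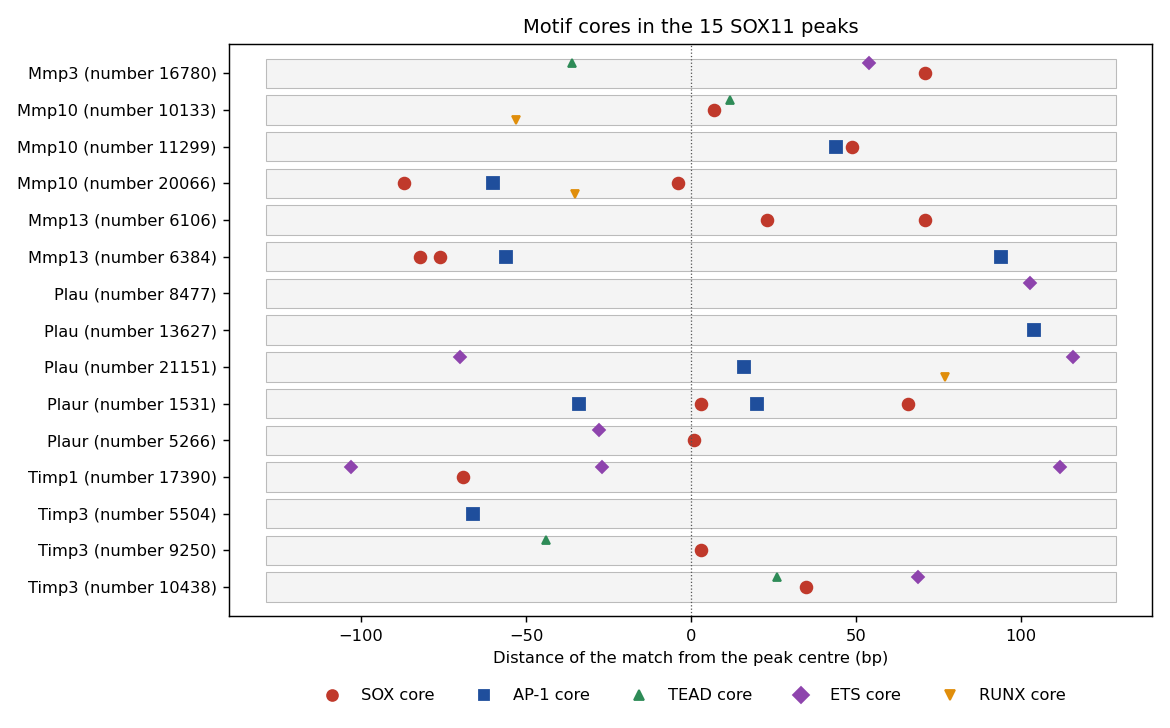
Each bar is 1 of the 15 SOX11 peaks, named by gene and number in the list, and the marks are matches to 5 short cores on either strand by their distance from the peak centre (bp). SOX cores (circles) lie within 25 bp of the centre in 6 peaks, and the *Plau* promoter peak, number 8477, has neither a circle nor a square (AP-1).

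In the promoter windows, from 250 bp before to 50 bp after the start and regardless of peaks, the AP-1 core was present in *Mmp3*, *Mmp10*, *Mmp13* and *Plaur*, 4 of 9 members, against 4.41% of 22380 promoters. The word in *Plaur* began 86 bp before the start. None of the 4 promoters with an AP-1 core overlapped a SOX11 peak. The share of all promoters that overlap one is not given here. The SOX core was present in the promoters of *Mmp10* and *Timp1* (26.0% of all promoters) and the ETS core in 7 of 9 (47.9% of all promoters). The promoters of *Plau* and *Timp1*, which did overlap a SOX11 peak, had no AP-1 core. Without a share over all promoters, these overlaps were not read as a trait of the members.

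The lists carry no score, but they are not in genomic order, and the whole SOX11 list changed along its length: a SOX4 peak overlapped 62.0% of the peaks numbered 1 to 2127 and 2.02% of those numbered 19144 to 21270, and the SOX core was found in 89.3% and 53.7%. The members' peaks stood between number 1531 and number 21151 with a median of 10133, close to the middle of the list, 10636. The upstream peak of *Plaur* was the only 1 in that leading stretch. Between numbers 4255 and 6381 were peaks of *Plaur*, *Timp3* and *Mmp13*; 10.9% of all peaks there overlapped a SOX4 peak. Whether the order of the file follows the strength of the peaks is not stated in the sources used here.

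**Figure D4:**
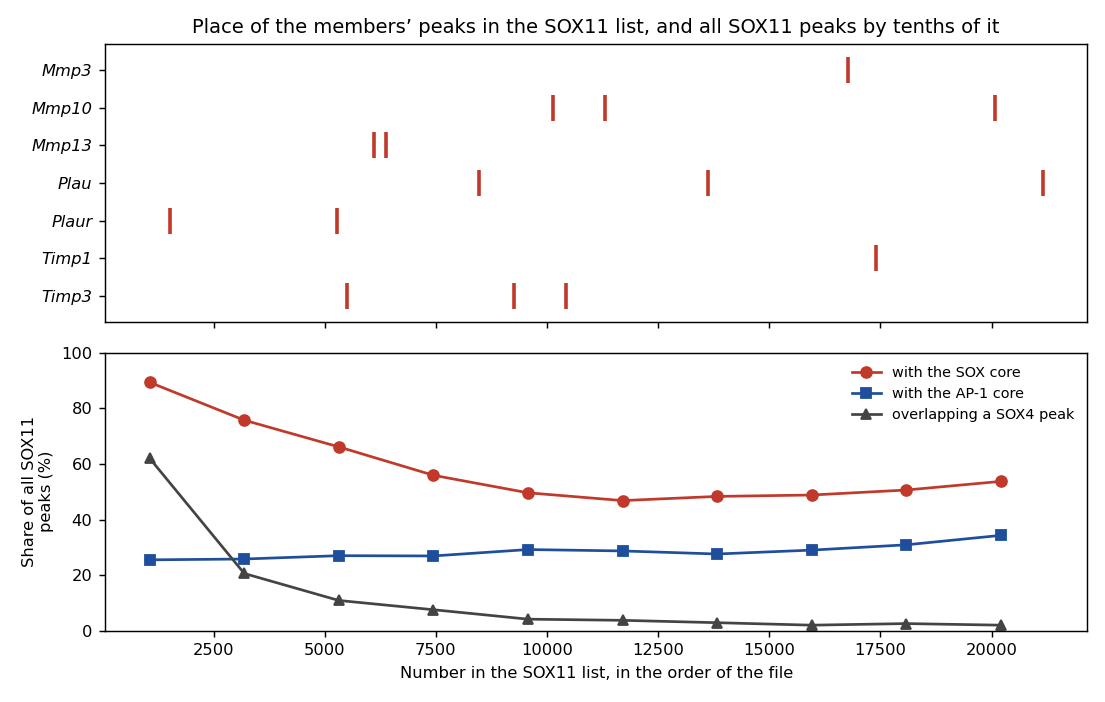
Above, each tick is a member's SOX11 peak by its number in the deposited list (horizontal axis, in the order of the file); below, the share of all SOX11 peaks (%) in each of 10 equal stretches of the list with the SOX core, with the AP-1 core or overlapping a SOX4 peak. The ticks spread over the list with 1 in the leading stretch, in which 62.0% of SOX11 peaks overlap a SOX4 peak.

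The same rule was applied to 61 other genes of extracellular and lysosomal proteolysis. A SOX11 peak was tied to 43 of them (70.5%) and a SOX4 peak to 10 (16.4%), against 57.0% and 13.0% of all protein-coding genes. Among the other matrix metalloproteinases 11 of 18 had a SOX11 peak and 1 of 18 a SOX4 peak; the latter was *Mmp11* (stromelysin-3), with a SOX4 peak, chr10:75395155-75395494, in its promoter on SOX11 peak number 628. The remaining metalloproteinase inhibitors, *Timp2*, *Timp4* and *Reck*, all had SOX11 peaks, with 1, 1 and 2, and none had a SOX4 peak. In the plasminogen system 4 of 7 genes had a SOX11 peak and 0 a SOX4 peak; *Lrp1*, a receptor that clears protease and inhibitor complexes, had 4 SOX11 peaks, and *Plat*, the tissue plasminogen activator, had 0.

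The ADAM and ADAMTS proteases, which release surface proteins or cut proteoglycans, had the most peaks: 10 of 12 had a SOX11 peak and 6 of 12 a SOX4 peak. *Adam12* had 9 SOX11 peaks and 2 SOX4 peaks, both SOX4 peaks in its introns, over a gene of 349 kb. *Adam15* had 6 and 2, but its SOX4 peaks lay nearest to the starts of *Dcst1* and *Efna4*. *Adamts5* and *Adamts15*, which cut aggrecan-type proteoglycans, had 5 SOX11 peaks and 1 SOX4 peak each, the SOX4 peaks 403 and 101 kb from the starts. *Adam17*, the sheddase of EGF-family ligands that TIMP3 inhibits, had 2 SOX11 peaks and a SOX4 peak in its promoter, at -96 bp from the start. *Adamts4* had 2 SOX11 peaks and 1 SOX4 peak. Of the epithelial serine proteases and their inhibitors 9 of 12 had a SOX11 peak and 2 a SOX4 peak, and of the cathepsins and cystatins 6 of 9 and 1 of 9. *Prss8* (prostasin) had 3 SOX11 peaks and a SOX4 peak in an intron of *Myst1*. *Spint2*, an inhibitor of such proteases, had 3 and 1, with its SOX4 peak at the start of *2200002D01Rik*, and *Ctsl* (cathepsin L) had 3 and 1. All 12 SOX4 peaks of these genes overlapped a SOX11 peak, as did 94.5% of the whole SOX4 list.

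**Figure D5:**
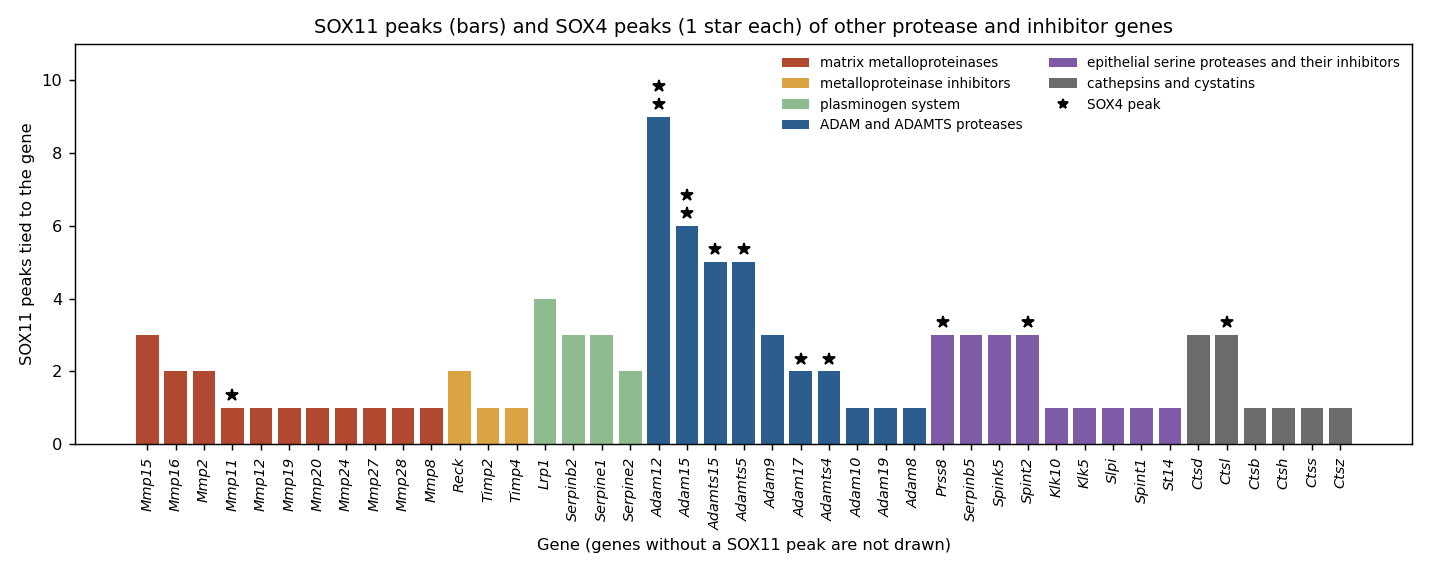
Bars give the number of SOX11 peaks tied to each of the 43 genes of the other protease and inhibitor lists that had any, coloured by list, and each star is 1 SOX4 peak tied to the same gene. *Adam12* leads with 9 SOX11 peaks, and the ADAM and ADAMTS genes carry 8 of the 12 stars.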

How the data were processed

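The authors mapped single-end reads to mm9 with Bowtie2, discarded non-nuclear, unmapped and low-quality reads, took out duplicate reads (Picard), ran the HOMER peak finder in its factor mode and subtracted blacklisted regions (bedtools); tool versions, thresholds and the control given to HOMER are not given in the sources used here. The deposited values are another kind of value than counts: the start and end of each peak, read as 0-based and printed from 1, for both libraries of a factor together. Depth per library is unknown.

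Genes, transcripts and UTRs came from GENCODE M1 and bases from the matching genome, NCBIM37, which is mm9. The overlap needed 1 bp. Exact cores were searched on both strands of whole peaks with Python 3.11.15, numpy 2.4.6 and pysam 0.24.0; samtools 1.23.1 indexed the genome. Shares carry 95% Wilson intervals and the peak density an exact Poisson interval (scipy 1.17.1), and a count of 0 allows 3 counts of the total. Figures used matplotlib 3.10.9. Overlap, nearest start and motif search were tested on simulated data.

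The members and lists were chosen with earlier results of these data known. The text names all members, the genes beside their peaks, and of the other lists the 6 genes with most SOX11 peaks and those with a SOX4 peak, and the genes of the *Mmp* cluster; *Plat*, *Timp2*, *Timp4*, *Reck* and the genes nearest to peaks of no member were added after their values were seen. Of 62 names in the other lists 61 matched the annotation. No test was run, because each factor has 1 pooled list. Other margins, gene rules, overlaps, motifs and windows were tried as 52 alternatives to 12 results. The split of cores by distance was added after seeing the data. Expression was not analysed here, and the sequences of 3 of the 15 member peaks are not reported here.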

Additional observations from a re-analysis of the deposited data

How the results depend on the processing

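Of 52 alternatives to 12 results, 41 left a count within 1.5 times its value, or a share or median within the 95% interval of the value reported; for the median distance that interval, from the ordered distances, is wide, 0.273 to 24.5 kb. The number of SOX11 peaks of the members rose from 15 to 27 with a margin of 50 kb and fell to 9 when only the first 50% of each list was used. Members with a SOX11 peak numbered 9 and 5, against 7. The share of all protein-coding genes with a peak is not given for these 2 settings. A wider margin can only raise that share and a shorter list can only lower it, so these counts say nothing particular to the members. With 50 kb, 1 SOX4 peak was tied to 1 member, *Plaur*; the counts of SOX4 peaks and of members with one were 0 under every other alternative run. The longer motifs with 1 mismatch gave 60% of member peaks for SOX, 66.7% for AP-1 and 40% for both, against 47.3%, 41.1% and 20% of all SOX11 peaks. Those without mismatch gave 13.3% of member peaks for SOX, 13.3% for AP-1 and 0% for both, against 11.3%, 11% and 1.06%. Within 50 bp of the centre the cores were found in 46.7%, 20.0% and 6.67% of member peaks. The shares of all SOX11 peaks in that window are not given here. A narrower window can only lower a share, so these values were not read as a trait of the members. With only the 10 kb margin, 10 peaks were left, 30% had the AP-1 core, 10.0% had both cores and the median distance fell from 13.1 to 1.63 kb, since the peaks beyond the margin were dropped by construction. No paired analysis was possible because each factor has 1 list made from both replicates, so no replicate could be left out either. With 15 peaks, only large departures from the whole list could be seen.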
